A study of Homo sapiens with 12 samples.

Results

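The induced cells of 2 experiments on one HEK293 line were set against each other, 3 libraries of experiment 2 against 3 of experiment 1, out of 12 libraries in the series. Both groups carry the same name in the labels, HEK293_Flp In/TO ΔFox2_Flag_mFox1. This human embryonic kidney line was made from cells of 1 clone that lack RBFOX2 by label, and it carries HA-Flag-tagged Rbfox1 of the mouse behind a promoter that doxycycline switches on. Cells of both groups were harvested 2 weeks after induction with 0.5 µg/ml doxycycline. Nothing says that the replicates were separate cultures, so the p-values rest on a spread between libraries that may be technical only. The other 6 libraries are the controls, 3 of the uninduced line in experiment 1 and 3 of doxycycline-treated parental cells in experiment 2. Because line and treatment are the same by label, the comparison describes how far 2 runs of one condition differ, in the make-up of the libraries and in the state of the cultures. Experiment stands with every date, culture, extraction and library step, so these cannot be told apart.

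RNA-seq libraries of total RNA differ in which RNA classes they retain. Ribosomal RNA of the mitochondrion, transcribed from the mitochondrial genome, is abundant unless removed, and RNAs shorter than the usual fragments, such as small nucleolar RNAs (snoRNAs, guides for the chemical modification of other RNAs), are kept or lost with the fragment size selected. Circular RNAs (circRNAs) arise when the spliceosome joins the end of an exon backwards to its own start or to that of an exon upstream, and they are read from that back-splice junction. A culture's state shows in inducible programmes, among them heat shock genes, which encode chaperones that refold proteins, and genes switched on by growth factor signalling through the kinase ERK.

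The gene tables held 42628237 to 55298749 counts for the induced libraries of experiment 1 and 37663525 to 38009529 for those of experiment 2, with 15505 to 22661 and 18945 to 21900 back-splice reads. Marks of the line against parental cells, chosen with earlier results of these data known, were looked up in both experiments. Their contrast with parental cells follows from that choice and is no separate check of the line. PABPC4L, STS, PUDP and SOX11 had 0 reads in all 6 libraries, where the parental cells had 43.0, 36.1, 27.9 and 23.0 counts per 1000000 (CPM, the count scaled by the library's TMM-adjusted size, here fitted over 12 libraries). ZNF22, with 34.9 CPM in parental cells, had 10, 10 and 7 reads in experiment 1 and 0, 0 and 0 in experiment 2. The clone's own marks CADPS, MUC16, ZNF677 and LHFPL4 were at 0 in parental cells and were read in all 6 libraries. RBFOX1 stood at 42.4, 42.7 and 41.9 CPM in experiment 1 and at 36.4, 36.5 and 37.8 CPM in experiment 2. The groups did not overlap, and the log2 difference of experiment 2 minus experiment 1 was -0.20 (SE 0.05, edgeR adjusted p = 0.00209), which turned to 0.04 and was not called with plain library totals, and was not called in a fit over 12 libraries either. How many of these reads came from the mouse transgene and how many from the human gene was not tested. RBFOX2, in which the labels call the line deficient, had 54.8, 61.0 and 58.0 CPM against 45.9, 51.3 and 42.9 CPM, a log2 difference of -0.31 (adjusted p = 0.000388), not called with plain library totals. Counts per gene cannot tell an intact RBFOX2 transcript from a disrupted one.

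**Figure D1:**
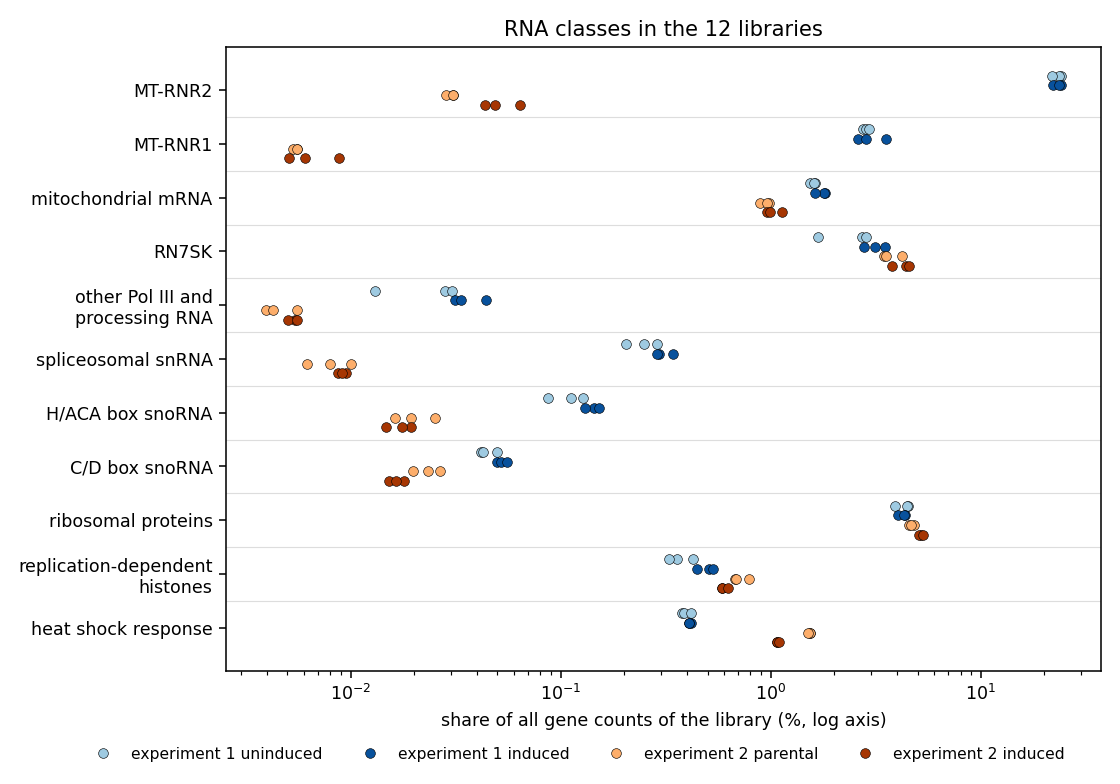
Share of all gene counts taken by RNA classes in each of the 12 libraries, on a log axis, with 1 point per library and 1 colour per group. Both groups of experiment 1 stand at 21.7% or more for MT-RNR2 and both groups of experiment 2 at 0.0638% or less, while RN7SK, ribosomal proteins and histones differ by far less.

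Of the RNA classes compared by their share of counts, mitochondrial ribosomal RNA differed most on the log2 scale. MT-RNR2, the large ribosomal RNA of the mitochondrion, took 24.1%, 22.1% and 23.5% of gene counts in the induced libraries of experiment 1 and 0.0435%, 0.0638% and 0.0485% in those of experiment 2. MT-RNR1, the small one, took 2.59%, 3.53% and 2.85% against 0.00508%, 0.00879% and 0.00606%. The log2 differences in CPM were -9.04 for MT-RNR2 and -9.05 for MT-RNR1 (edgeR adjusted p = 1.30e-14 and 9.60e-15). In shares of all counts the exact two-sided permutation test gave p = 0.1, the smallest that 3 against 3 libraries allow, for both, and for 17 of the 18 classes compared (adjusted p = 0.106). Protein-coding genes took 62.0 ± 0.741% of counts (SD, n = 3) in experiment 1 and 89.1 ± 0.437% in experiment 2. The controls of each experiment resembled its induced cells in this, with 26.2 ± 0.579% mitochondrial ribosomal RNA in induced and 25.9 ± 1.12% in uninduced libraries of experiment 1.

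The messenger RNAs of the mitochondrial genome, which encode subunits of the respiratory chain, did not move as one. Of 13 tested, 11 were lower in experiment 2 and 0 higher, with a median log2 difference of -2.03, against 37.0% of all 18288 genes tested that were called lower. MT-ATP6, a subunit of ATP synthase, stood at 1070, 1075 and 944 CPM in experiment 1 and at 172, 195 and 145 CPM in experiment 2, a log2 difference of -2.59. MT-ATP8, which overlaps it, so that reads may be shared, differed by -3.95, MT-ND5 of complex I by -2.50 and MT-CYB of complex III by -2.49. MT-CO2, a subunit of cytochrome oxidase, stood at 1852, 1635 and 1570 CPM against 1780, 2044 and 1840 CPM, groups that overlapped, with a log2 difference of 0.16 that was not called (adjusted p = 0.0626). MT-CO2 was called higher by DESeq2, with plain library totals, without a filter and in the fit that blocks on replicate number. The same held in the fit over 12 libraries and without library 1 of either experiment. MT-ND3 of complex I was likewise not called, at 0.12 (adjusted p = 0.197), but was called higher with plain library totals, without a filter and without experiment 1 library 1. MT-CO3 was 0.50 lower on the log2 scale and MT-CO1 1.01 lower (adjusted p = 5.06e-05 and 1.99e-08). So the messenger RNAs of this genome spanned from groups that overlapped to a difference of -3.95. Of 11 mitochondrial tRNAs tested, all 11 were lower, and 9 more of that list were not tested. These RNAs had low counts and could pass the filter through their level in experiment 1 alone. That favours the lower direction, so the count of 11 is no separate support for it. MT-TV, the tRNA gene that lies between the 2 ribosomal RNAs, had 234, 164 and 220 reads in experiment 1 and 0, 0 and 0 in experiment 2, at least 192-fold lower against a floor of 3 reads over the group.

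Most tested H/ACA box snoRNAs, Cajal body RNAs and spliceosomal RNAs were lower in experiment 2, as were 29 of 47 tested C/D box snoRNAs. Their counts stand beside 37.0% of all genes called lower and 36.8% called higher. A low-count RNA could pass the filter through its level in experiment 1 alone, which favours the lower direction among such RNAs. Of 62 H/ACA box snoRNAs, the guides of pseudouridylation, 61 were lower and 0 higher, with a median log2 difference of -3.08. Another 39 of the 101 listed were not tested. Without the filter on low counts the median relative to protein-coding genes went from -3.16 to -2.73. SNORA74A stood at 137, 187 and 182 CPM in experiment 1 and at 2.82, 1.94 and 2.12 CPM in experiment 2. Of 47 C/D box snoRNAs, the guides of ribose methylation, 29 were lower, 8 higher and 10 not called, with a median of -1.10. Another 47 of the 94 listed were not tested. SNORD15B fell from 206, 188 and 216 CPM to 6.50, 5.06 and 6.40 CPM (log2 difference -5.09), while SNORD3B-2, one of the genes for the longer U3 snoRNA, was 2.18 higher (adjusted p = 5.83e-10). The U3 genes are near-identical copies, so the split of reads among them is uncertain. Of 16 RNAs of Cajal bodies, the nuclear sites of snRNA modification, 14 were lower and 2 higher. Their summed share of all counts was 0.0290 ± 0.00226% and 0.0282 ± 0.00254% (SD, n = 3), overlapping groups. Without MT-RNR1 and MT-RNR2 in the denominator it was 0.0393 ± 0.00336% against 0.0282 ± 0.00254%, groups that did not overlap (exact permutation p = 0.1). SCARNA7, which stood at 107, 82.7 and 94.5 CPM in experiment 1, was 1.18 higher on the log2 scale.

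Among 16 RNAs of the spliceosome, 12 were lower and 1 higher, with a median log2 difference of -4.75. RNU5A-1, a gene of the U5 RNA, stood at 465, 510 and 532 CPM in experiment 1 and at 1.44, 1.82 and 2.53 CPM in experiment 2, a log2 difference of -8.02 (adjusted p = 2.37e-17). RNU5B-1 differed by -7.79 and RNU4-2, a gene of the U4 RNA, by -6.01. RNU1-1 was not called, at -0.10 (adjusted p = 0.613), and U1 genes too are near-identical copies. RNAs of RNA polymerase III and of RNA processing also differed within one class. Of 8 tested, 6 were lower and 1 higher. The counts of both classes stand beside 37.0% of all genes called lower and 36.8% called higher. RNY1, a Y RNA, had 251, 237 and 359 CPM against 5.33, 5.25 and 5.04 CPM, and RNY4 and the vault RNA VTRNA1-1 differed by -8.89 and -5.17. RN7SK, the RNA that holds the elongation factor P-TEFb inactive, took 3.50%, 2.77% and 3.15% of counts against 4.38%, 3.78% and 4.56%. The test did not call it (log2 difference 0.20, adjusted p = 0.167), and without MT-RNR1 and MT-RNR2 in the denominator its share was 0.0185 points lower in experiment 2 instead of 1.10 points higher.

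Over all 18288 genes tested, 6734 were higher and 6760 lower in experiment 2, 73.8% of them called, so a call by itself says little about any gene here. At least 2-fold differences were called in 1742 genes that were higher (9.53%) and in 2615 that were lower (14.3%). The median log2 difference over all genes was -0.02. With plain library totals it moved to 0.21 and the calls to 8750 higher and 4719 lower, and with totals that leave out MT-RNR1 and MT-RNR2 to -0.24 with 5057 higher and 9050 lower. Directions of genes within about 0.25 of 0 therefore rest on the scaling. Leaving MT-RNR1 and MT-RNR2 out of the gene table and keeping TMM scaling gave 6692 higher and 7086 lower of 18756 tested, with 13442 of the 13494 calls shared.

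Gene class, level and length each went with the difference. The median log2 difference was 0.08 for 13318 protein-coding genes, -0.28 for 1186 long noncoding RNAs, -0.54 for 1259 pseudogenes and -2.37 for 109 snoRNAs. Among protein-coding genes it ran from -0.29 in the lowest of 5 equal classes by mean level to 0.32 in the highest. By genomic span it ran from 0.23 in the shortest of 5 classes, up to 10.2 kb, to -0.10 in the longest, from 102 kb. The order by span also appeared within the highest class of level, where the medians from shortest to longest were 0.51, 0.56, 0.41, 0.21 and 0.08. It did not appear in the lowest class of level, where they were -0.19, -0.39, -0.38, -0.28 and -0.28. The 2010 protein-coding genes with a pseudogene that bears their name in the reference table had a median of 0.29 and the 11308 others one of 0.03, a split chosen after values were seen. Genes whose span overlaps a gene on the other strand had a median of 0.06 and the rest one of 0.12. These are descriptions across genes, which are not replicates, and the part of any of these properties in the difference of a single gene was not tested.

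**Figure D2:**
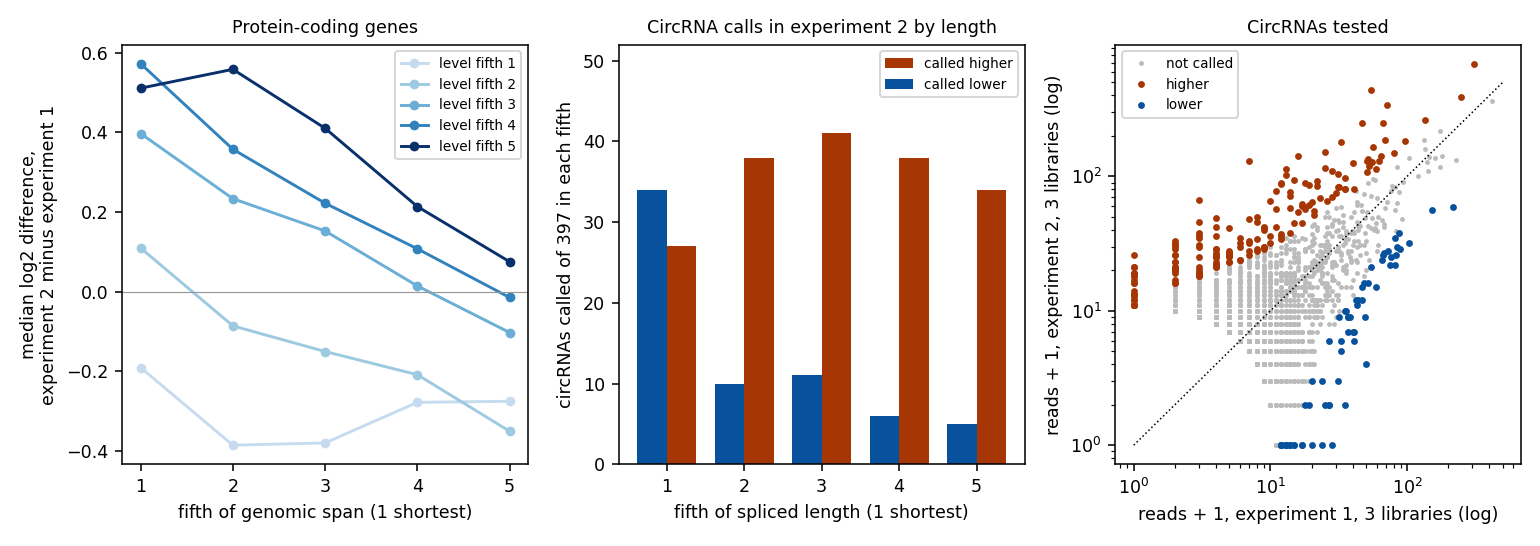
Left, median log2 difference of protein-coding genes by class of genomic span (5 of equal size), with 1 line per class of mean level. Middle, number of circRNAs called higher and lower in experiment 2 by class of spliced length, where the shortest of 5 classes alone holds 34 of the lower calls. Right, reads of each tested circRNA summed over 3 libraries plus 1 in both experiments, on log axes, with the line of equal reads dotted.

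Heat shock genes formed the list with the highest median. Of 16 tested, 15 were higher in experiment 2 and 0 lower, with a median log2 difference of 1.18, against 36.8% of all genes called higher. HSPA8, the constitutive HSC70 chaperone, stood at 1064, 907 and 993 CPM in experiment 1 and at 4124, 3999 and 4154 CPM in experiment 2, a log2 difference of 2.05 (SE 0.07, adjusted p = 6.87e-13). HSPA1B, an inducible HSP70, had 147, 149 and 169 CPM against 374, 399 and 426 CPM. Its near-identical copy HSPA1A had 0.459, 0.375 and 0.455 CPM against 3.17, 3.65 and 3.54 CPM, and the split of reads between the pair is uncertain. DNAJA1 and DNAJB4, co-chaperones that hand clients to HSP70, were 1.52 and 1.51 higher. HSPH1, a nucleotide exchange factor of HSP70, went from 58.9, 63.5 and 62.3 CPM to 178, 165 and 180 CPM, and HSP90AA1 and HSP90AB1 0.67 and 0.84 higher. HSPD1, the mitochondrial HSP60, was 0.13 higher (adjusted p = 0.0424), a call lost when MT-RNR1 and MT-RNR2 were left out and without any one of 4 of the 6 libraries, and its difference was -0.07 with totals that leave them out. HSPA6, an HSP70 found almost only in stressed cells, stood at 0.299, 0.250 and 0.407 CPM against 0.268, 0.411 and 0.320 CPM, overlapping groups that were not called. The summed share of the 16 genes was 0.411 ± 0.00490% of counts in experiment 1 and 1.08 ± 0.0156% in experiment 2 (SD, n = 3), and the controls stood at 0.394 ± 0.0202% in uninduced and 1.53 ± 0.0158% in parental cells. Part of the parental share is HSPA1A, which stood far higher in parental cells than in any induced library.

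Heat shock factor HSF1 binds inverted repeats of GAA upstream of such genes. The promoters of the 16 genes, taken from RefSeq on GRCh38.p14 as 250 bases before to 50 after the start, were searched for GAANNTTC and TTCNNGAA, each of which reads the same on both strands. Of the 16, 7 held a match, against 13.7% of the 27305 promoters in the table. Stretches before the start of 4 of these genes are shown because they put the repeat beside the size of the difference, with matches in capitals.
HSPA1A, chr6:31815345-31815454, plus strand: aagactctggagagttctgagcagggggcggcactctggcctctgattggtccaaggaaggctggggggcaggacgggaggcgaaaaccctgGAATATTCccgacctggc
HSPA8, chr11:123062169-123062278, minus strand: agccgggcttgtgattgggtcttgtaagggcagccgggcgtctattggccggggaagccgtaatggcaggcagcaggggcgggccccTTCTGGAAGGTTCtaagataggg
CHORDC1, chr11:90223055-90223164, minus strand: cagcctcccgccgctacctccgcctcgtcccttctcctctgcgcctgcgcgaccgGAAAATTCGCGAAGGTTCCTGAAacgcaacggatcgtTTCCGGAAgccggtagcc
HSPA6, chr1:161524379-161524488, plus strand: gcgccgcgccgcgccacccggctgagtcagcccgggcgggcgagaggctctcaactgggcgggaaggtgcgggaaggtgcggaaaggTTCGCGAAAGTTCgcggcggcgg
CHORDC1, an HSP90 co-chaperone with 6 matches in its window of 300 bases, was 1.03 higher in experiment 2, while HSPA6 with 3 matches was not called. HSPE1, the partner of HSPD1, was 1.32 higher, and both it and HSPH1 held no match in these windows. A match describes the letters and shows neither binding nor a cause.

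Other genes that protect proteins and redox balance were higher too, in lists drawn up after values had been seen. The counts called in these lists stand beside 36.8% of all genes called higher and 37.0% called lower. Protein-coding genes of the highest class of level had a median log2 difference of 0.32. Of 15 targets of NRF2, the factor of the antioxidant response, 13 were higher and 1 lower, with a median log2 difference of 0.81. HMOX1, haem oxygenase, stood at 3.77, 3.602 and 3.62 CPM in experiment 1 and at 28.0, 34.3 and 37.9 CPM in experiment 2 (log2 difference 3.19, adjusted p = 4.07e-13), and NQO1, a quinone reductase, was 2.51 higher. All 8 subunits of the chaperonin TRiC were higher, from 0.15 for CCT8 to 1.049 for TCP1, with CCT8 at -0.06 under totals that leave out MT-RNR1 and MT-RNR2, and not called without experiment 1 library 2. Of 19 genes of the 26S proteasome, 15 were higher and 1 lower. PSMC5, an ATPase of its base, went from 22.6, 23.8 and 23.1 CPM to 130, 145 and 142 CPM. The Sm and U1 proteins, which bind the spliceosomal RNAs described above as lower, were higher in 10 of 12 cases and lower in 2, with SNRPF at 2.77 and SNRPD3 at 2.44. The lower ones, SNRPB and SNRPE at -0.15 and -0.27, lost that call with plain library totals, SNRPB at 0.09. SNRPB also lost it without a filter, in a fit over 12 libraries and without library 1 or 3 of experiment 1 or library 1 or 2 of experiment 2. SNRPFP1, a pseudogene named after SNRPF, was 3.85 higher, and reads of such a pair may be exchanged between them.

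**Figure D3:**
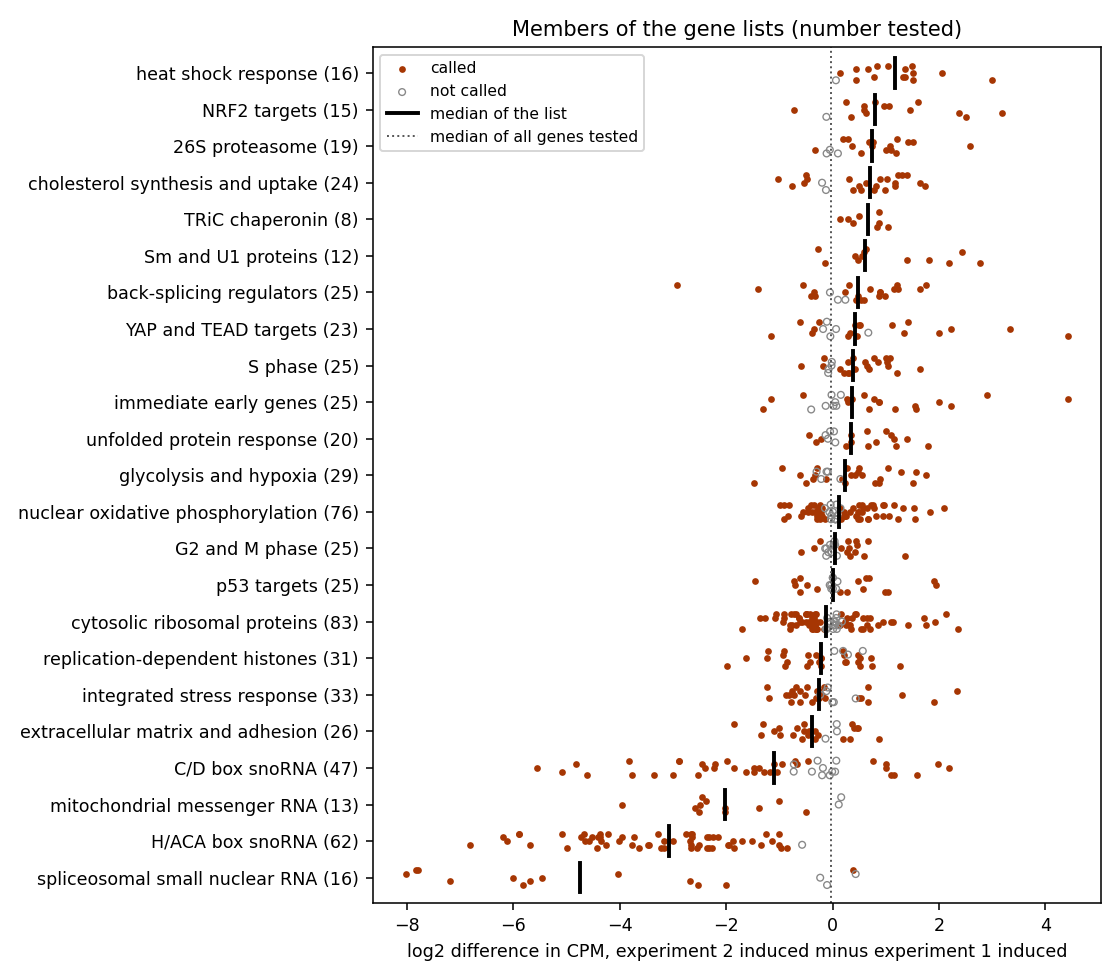
Log2 difference in CPM (experiment 2 induced minus experiment 1 induced) of every tested member of 23 gene lists, filled where called, with the median of each list and, dotted, the median of all genes tested. Medians run from 1.18 for the heat shock list to -4.75 for spliceosomal RNAs.

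Immediate early genes, which growth factors induce within minutes to hours, were higher in 15 of 25 cases and lower in 3, against 36.8% and 37.0% of all genes, with a median log2 difference of 0.37. EGR1, a zinc finger factor, stood at 2.97, 6.58 and 4.24 CPM against 22.8, 24.5 and 16.6 CPM, a log2 difference of 2.23 (adjusted p = 2.99e-08), and FOS was 1.57 higher. CTGF and CYR61, secreted matricellular proteins and targets of the factor YAP, were 4.43 and 1.99 higher. JUND was 1.31 lower, EGR3 1.16 lower and MYC 0.56 lower. Of 10 genes that report ERK output, a list drawn up after values had been seen, 5 were higher, 3 lower and 2 not called. The 5 were ETV5, DUSP6, ETV4, SPRY4 and SPRY2, and the 3 were PHLDA1, EPHA4 and DUSP4. DUSP4, another phosphatase of ERK, was 0.24 lower (adjusted p = 0.0240) and lost that call with plain library totals, without a filter, in a fit over 12 libraries and without experiment 1 library 2 or experiment 2 library 1 or 3. ETV5, an ETS factor, stood at 4.49, 5.28 and 4.48 CPM in experiment 1 and at 45.5, 46.2 and 43.0 CPM in experiment 2, with a log2 difference of 3.24 (SE 0.08, adjusted p = 8.52e-15). DUSP6, the phosphatase that switches ERK off, went from 5.02, 5.35 and 5.70 CPM to 38.9, 40.5 and 41.1 CPM. SPRY4, a feedback inhibitor of receptor signalling, was 2.29 higher, and PHLDA1, also of that list, 1.24 lower. In the control cells ETV5 had 8.38 ± 1.85 CPM in the uninduced line and 0.890 ± 0.116 CPM in parental cells (SD, n = 3, 12-library scaling). Its level in the induced cells of experiment 2 was thus above that of both control groups, which differed from each other.

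Lists of metabolism and stress differed by member, and their counts stand beside 36.8% of all genes called higher and 37.0% called lower. Of 24 genes of cholesterol synthesis and uptake, 17 were higher and 5 lower, with a median log2 difference of 0.71. EBP and ACAT2, enzymes of sterol synthesis, were 1.74 and 1.65 higher, and SREBF2, which encodes the factor that drives these genes, 1.03 lower. Of 20 genes of the unfolded protein response of the endoplasmic reticulum, 12 were higher and 3 lower. HSPA5, its chaperone BiP, went from 71.5, 78.3 and 72.6 CPM to 255, 259 and 254 CPM. The integrated stress response, which the factor ATF4 drives, went the other way in most members: of 33 genes, 20 were lower and 7 higher, with a median of -0.25. ASNS, asparagine synthetase, had 324, 326 and 317 CPM against 192, 178 and 177 CPM, and VLDLR, the lipoprotein receptor, was 1.23 lower. NUPR1 and PPP1R15A of the same list were 2.34 and 1.91 higher, so the list held both directions. The median of -0.25 is close to the shift that another scaling gives to all genes.

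The counts of the next lists too stand beside 36.8% of all genes higher and 37.0% lower. Genes of S phase were higher in 18 of 25 cases and lower in 3, with FEN1, the flap endonuclease, at 1.65 and CDC6, which loads the replicative helicase, at 1.22. Of 25 genes of G2 and M phase 11 were higher and 3 lower, with PLK1, the mitotic kinase, at 1.35 and CENPE, a kinesin of the kinetochore, at -0.59. Glycolytic and hypoxia genes were higher in 16 of 29 cases and lower in 8. PKM, pyruvate kinase, stood at 1.56 and PDK1, which inhibits pyruvate dehydrogenase, at -1.48. Of 26 genes of extracellular matrix and adhesion 16 were lower and 7 higher, with a median of -0.38. COL18A1, a collagen of basement membranes, had 46.2 ± 0.685 CPM against 12.8 ± 0.233 CPM, and ITGB1, the integrin beta 1 chain, was 0.88 higher. Ribosomal protein genes were mixed, with 28 of 83 higher and 41 lower, and so were nuclear genes of oxidative phosphorylation (37 of 76 higher and 26 lower) and replication-dependent histones (11 of 31 higher and 16 lower). Some lists lay near those shares over all genes. Of 25 p53 targets 10 were higher and 7 lower, of 20 interferon-stimulated genes 7 were higher and 6 lower. Nuclear long noncoding RNAs lay away from those shares, with 8 of 12 lower and 2 higher. NEAT1, the scaffold of paraspeckles, had 466, 631 and 375 CPM against 142, 141 and 135 CPM, while MALAT1 of nuclear speckles was not called (log2 difference 0.00, adjusted p = 0.995).

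Protein-coding genes were ranked by size where the mean log2 CPM reached 1 and the groups did not overlap, as they did not in 76.5% of all genes. After CTGF the largest rise was that of BANF1, a chromatin-binding protein of the nuclear envelope, which stood at 9.53, 7.93 and 9.10 CPM against 87.9, 104 and 99.7 CPM (log2 difference 3.45). MYOF, ETV5, NME1, HMOX1, SAMD15, DUSP6, CHGB and PSG4 followed. NME1, a nucleoside diphosphate kinase, went from 60.8, 50.2 and 59.4 CPM to 531, 521 and 538 CPM, and CHGB, a granin of secretory granules, was 2.89 higher. The largest fall was in ANKRD30BL, with 20234, 20512 and 19060 reads in experiment 1 and 2, 1 and 2 reads in experiment 2. The controls split by experiment too, with 684 CPM in the uninduced line and 0.0975 CPM in parental cells (12-library scaling). Whether this fall is one of library make-up or of expression was not tested. MIR663B, a miRNA hairpin locus chosen after its values were seen, had 53, 73 and 61 reads against 3, 5 and 5, and a hairpin's count need not be mature miRNA. MEGF6, an EGF-repeat protein, followed at 9.67, 10.6 and 10.3 CPM against 0.779, 0.823 and 0.640 CPM (log2 difference -3.76). KNDC1, STON1, C1orf95, PADI2, VSTM2B, NOVA2, ABCG1 and FAM131B made up the rest, between -3.43 and -2.88. STON1, an adaptor of endocytosis, stood at 15.3, 17.0 and 16.7 CPM against 1.83, 1.94 and 1.43 CPM. ABCG1, a cholesterol exporter, was 2.90 lower.

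**Figure D4:**
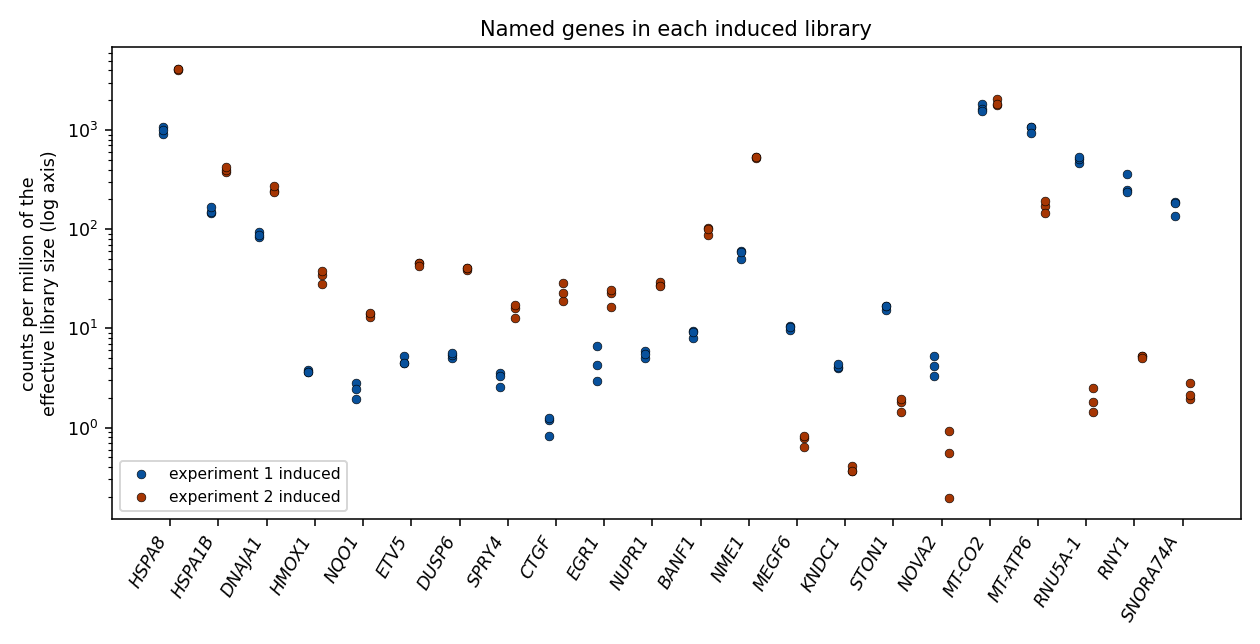
CPM of 22 named genes in each of the 3 induced libraries of both experiments, on a log axis. MT-CO2 has overlapping groups, and the groups of the other 21 genes do not overlap.

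Markers of other cell types had 0 to 107 reads. TTR and FGB of hepatocytes had 0 reads in all 6 libraries, ALB had 0 to 5, PTPRC of leukocytes 0 to 2 and COL1A2 of fibroblasts 0 to 1. THY1 of fibroblasts had 0, 0 and 0 reads against 8, 3 and 5. HBB, a globin of red cells, had 57, 30 and 42 reads in experiment 1 and is listed in that experiment's table only, so it was counted as 0, 0 and 0 in experiment 2 and not tested. Of 9 haematopoietic markers, 3 were tested, CD14, VAV1 and LCP1, which edgeR did not call (adjusted p = 0.0769 for CD14, the smallest). VAV1 of blood cells had 89, 55 and 75 reads against 93, 76 and 65. The summed level of the 9 was 2.70 to 3.56 reads per 1000000 gene counts against 2.97 to 3.97, and without HBB and CD3E, each listed in one table only, 1.99 to 2.53 against 2.97 to 3.89. COL1A1 of fibroblasts had 102, 101 and 102 reads against 70, 107 and 84 and was not called (adjusted p = 0.492). Of 8 fibroblast markers 3 were tested and 2 were lower, PDGFRA with 102, 87 and 90 reads against 62, 32 and 36 and COL3A1 with 15, 12 and 20 against 8, 3 and 6. COL3A1 was not called without experiment 1 library 3 or experiment 2 library 2. The 8 summed to 4.05 to 4.83 against 3.74 to 4.17 reads per 1000000 gene counts. Of 12 kidney and HEK293 markers tested 5 were higher and 4 lower. Among them were CDH1, E-cadherin, at -1.37 and KRT18, a keratin of simple epithelia, at 0.77. Over all genes 36.8% were called higher and 37.0% lower, so the kidney and HEK293 counts lie near the general shares.

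CircRNA made up a larger part of the counts in experiment 2 where mitochondrial ribosomal RNA was in the denominator, and not where it was left out. Back-splice reads came to 410, 364 and 377 reads per 1000000 gene counts in experiment 1 and to 579, 503 and 561 in experiment 2. The groups did not overlap, with a log2 difference of 0.51 (SE 0.08, exact permutation p = 0.1). Without MT-RNR1 and MT-RNR2 in the denominator the values were 559, 489 and 512 against 579, 503 and 562, overlapping groups with a log2 difference of 0.08 (SE 0.08, exact permutation p = 0.4). Over counts of protein-coding genes alone it was -0.01 (p = 1), and over TMM-adjusted sizes 0.28 (p = 0.1), by the same exact test.

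Fewer different circRNAs were read in experiment 2. In equal draws of 15505 back-splice reads, the number of the shallowest of the 6 libraries, 8272, 8202 and 8307 different circRNAs were expected in experiment 1 and 6223, 6348 and 6475 in experiment 2. Of these, 72.8%, 71.4% and 72.2% had 1 read in experiment 1 and 53.7%, 54.8% and 55.8% in experiment 2. The controls followed their experiment, with 6248 to 6458 different circRNAs in parental cells and 8071 to 8080 in the 2 uninduced libraries deep enough. Of 20197 circRNAs read in the induced cells of experiment 1, 34.8% were also read in those of experiment 2, and of 16220 read there 43.3% were also read in experiment 1. The shared ones held 67.3% and 72.9% of the reads.

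**Figure D5:**
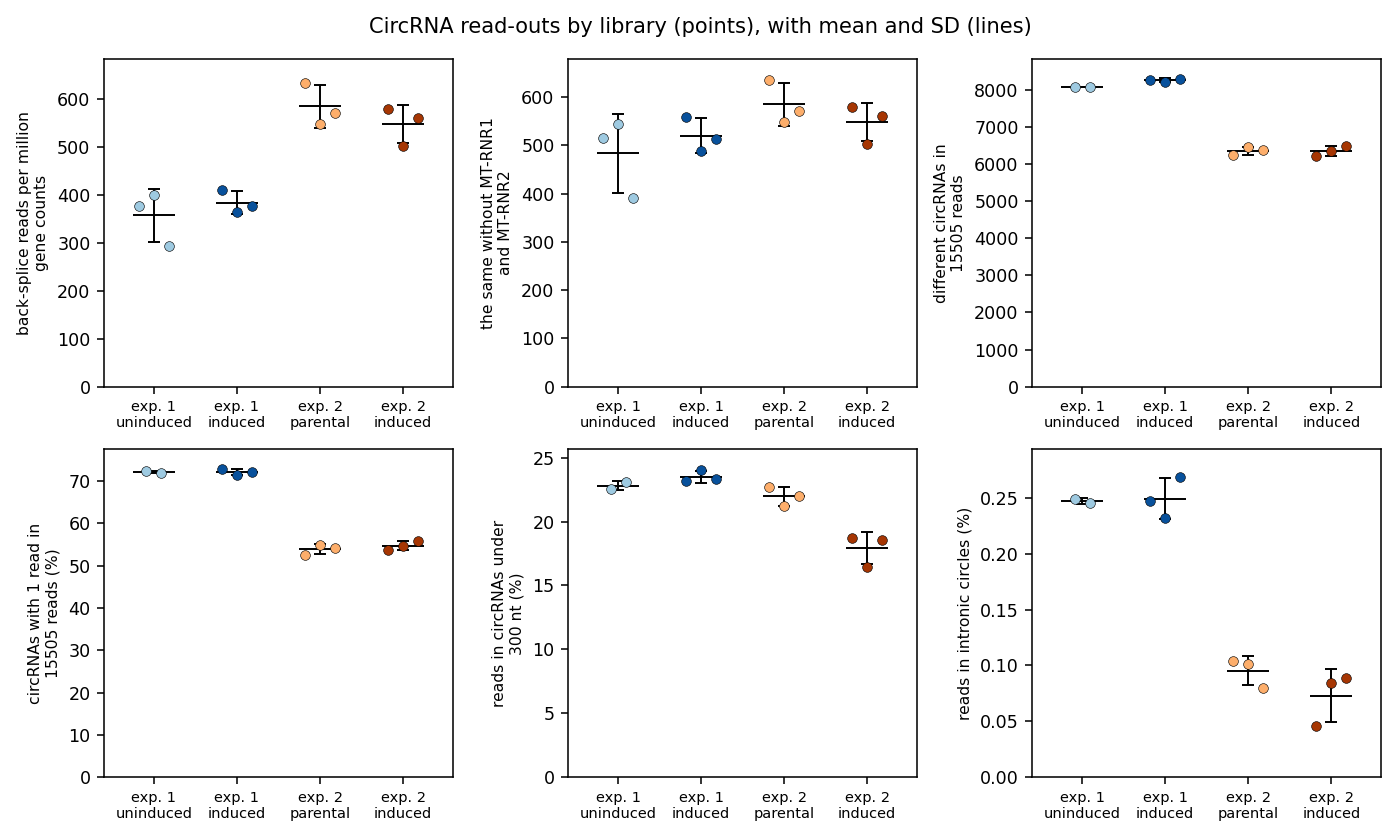
CircRNA read-outs in each library, with the mean and SD of each group: back-splice reads per 1000000 gene counts, the same without MT-RNR1 and MT-RNR2, different circRNAs and circRNAs with 1 read in draws of 15505 reads, reads in circRNAs under 300 nt and reads in intronic circles. An uninduced library with fewer reads than the draw is left out of the last 4 panels, and all axes start at 0.

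Short circles were rarer in experiment 2. CircRNAs under 300 nt of spliced length took 23.2%, 24.0% and 23.3% of back-splice reads in experiment 1 and 18.7%, 16.5% and 18.6% in experiment 2, and the controls had 22.8 ± 0.359% (n = 2) and 21.98 ± 0.728% (n = 3). Circles of intronic sequence, lariats that escaped debranching, took 0.249 ± 0.0181% against 0.0731 ± 0.0238% (SD, n = 3). Circles of 10 or more exons took 6.67 ± 0.113% against 7.48 ± 0.313%, and single-exon circles 7.13 ± 0.0602% against 7.23 ± 0.402%. Of the 8 such measures, 7 had groups that did not overlap (exact permutation p = 0.1, adjusted p = 0.114) and single-exon circles did not (p = 0.7).

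Of 1985 circRNAs tested one by one, 178 were higher and 66 lower in experiment 2, 12.3% in all, with 8.97% higher and 3.32% lower. The balance of higher and lower calls depends on scaling. This test used TMM-adjusted sizes, over which total back-splice reads were 0.28 higher on the log2 scale. That value was 0.08 without MT-RNR1 and MT-RNR2 and -0.01 over protein-coding counts. All but 1 of the higher ones differed at least 2-fold (177, 8.92%), as did all 66 lower ones. Without experiment 1 induced library 1 these counts fell to 91 and 16, without library 2 to 100 and 24, without library 3 to 99 and 23, and without experiment 2 induced library 1 to 113 and 49. Among the 66 that were lower, 35 were under 300 nt (53.03%), against 33 of the 178 that were higher (18.5%) and 464 of all 1985 tested (23.4%). The median length was 272 nt for the lower and 477 nt for the higher ones, with 469 nt for all. In the shortest of 5 equal classes, of 110 to 282 nt, 27 were higher and 34 lower, and in the longest 34 and 5.

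The circRNA with the smallest p was one of ERC1, which encodes a scaffold of vesicle docking sites. Its circle of 3 exons and 429 nt (chr12:1345935-1399178, plus strand, hg19) had 29, 11 and 13 reads in experiment 1 and 151, 158 and 132 in experiment 2, a log2 difference of 3.17 (adjusted p = 1.08e-15). The ERC1 gene was 0.74 higher, and the circRNA was 2.47 higher against it (adjusted p = 0.00125). ERC1 circles of 4 and 6 exons from the same first exon were 2.74 and 2.70 higher, and one of 2 exons had 1, 0 and 0 reads against 8, 9 and 11. A circle of DEK, a chromatin protein, had 24, 20 and 26 reads against 122, 105 and 112 (chr6:18236683-18258636, minus strand), with 2.37 in the circRNA and 0.48 in the gene. Circles of CEP128, a centriole protein, of CCDC18 and of SKIL, a repressor of TGF-beta signalling, were 4.45, 2.51 and 3.29 higher. The SKIL gene was not called (log2 difference -0.03, adjusted p = 0.657), and its direction rests on the scaling. It was called higher with plain library totals (0.20) and lower with totals that leave out MT-RNR1 and MT-RNR2.

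The most-read circRNAs over the 6 libraries did not all follow. A circle of MAN1A2, a mannosidase of the Golgi (chr1:117944808-117963271, plus strand, 4 exons), had 183, 102 and 130 reads against 116, 111 and 137, overlapping groups with a log2 difference of -0.07 that was not called (adjusted p = 0.877). The single-exon circle of CDYL, a chromodomain protein (chr6:4891947-4892613), had 142, 68 and 99 reads against 233, 221 and 235, 1.28 higher. The circle of DNAH14, an axonemal dynein chain, was 0.75 higher while its gene was 0.70 lower. With back-splice totals as library sizes this DNAH14 circle was not called, and without experiment 1 library 3 or experiment 2 library 1 it was not called either.

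Lower circRNAs were mostly short. A circle of ASXL1, a Polycomb-associated protein, of 3 exons and 195 nt (chr20:30954187-30956926, plus strand) had 91, 57 and 66 reads against 23, 14 and 21, a log2 difference of -1.77 (adjusted p = 2.23e-06). A circle of ORC4, a subunit of the origin recognition complex, of 242 nt had 18, 15 and 16 reads against 1, 1 and 1, a ratio of 15.2 (95% exact interval 4.92 to 76.4, counting error only). The ORC4 gene was not called (log2 difference 0.05, adjusted p = 0.421), and its direction too rests on the scaling. It was called higher with plain library totals and lower, at -0.16, with totals that leave out MT-RNR1 and MT-RNR2. A circle of ZNF124, a zinc finger protein, of 188 nt had 7, 9 and 11 reads against 0, 0 and 0, at least 8.59-fold lower against a floor of 3 reads over the group. Circles of GUCY1A2, a subunit of the nitric oxide receptor, and of TRPC1, a cation channel, were the others with the smallest p, with 12, 7 and 15 reads against 1, 0 and 0 and with 71, 45 and 35 against 24, 14 and 17. Of 25 genes with at least 2 called circles, 4 had calls in both directions. In EIF4G3, a translation initiation factor, a circle of 137 nt had 13, 7 and 10 reads against 0, 2 and 0 and one of 266 nt was 1.80 lower, while one of 295 nt was 2.22 higher. All 3 called circles of UBA2, a SUMO-activating enzyme, were lower, the one of 220 nt with 13, 6 and 4 reads against 2, 0 and 0 and those of 321 and 443 nt at -1.58 and -1.10.

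Against the count of the host gene in the same libraries, 105 of 1911 circRNAs were higher and 41 lower (7.64%, with 5.49% and 2.15%). A circle of ATM, the DNA damage kinase, of 16 exons (chr11:108186550-108206688, plus strand) had 2, 3 and 5 reads against 25, 23 and 29, while the ATM gene was 0.74 lower, so the circle was 3.73 higher against its host (adjusted p = 0.000154). Circles of ATRNL1, an attractin-like receptor, and of VPS13A, a lipid transfer protein, were 2.94 and 3.99 higher against theirs. One of ANKRD12 had 1, 0 and 1 reads against 17, 13 and 36, a ratio of 35.4 (95% exact interval 9.41 to 298). Circles of CCT3, PROSC and SIPA1L1 were the lower ones with those of ORC4 and ZNF124. The PROSC circle of 220 nt had 38, 15 and 27 reads against 3, 13 and 5, and those of CCT3 and SIPA1L1 had 9, 8 and 9 against 1, 0 and 0 and 7, 11 and 8 against 1, 0 and 0. The calls against the host were lost for CCT3 and SIPA1L1 without experiment 1 induced library 2 or 3 and for PROSC without library 1. The SIPA1L1 circle itself was not called without experiment 1 library 2, and the PROSC circle without library 1 of either experiment. Without experiment 1 induced library 1, 2 or 3 the counts against the host fell to 26 and 3, 14 and 2, and 31 and 2. In simulated data with 200 changed features, 5% of 4-fold changes against the host and 20.7% of 4-fold changes in circRNAs were recovered. These were among 1632 and 1699 features, against 97% among 18288 genes, so a circRNA that was not called may still differ by that much. The number changed and the spread of host counts were set in advance, so these shares need not hold for the real data.

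Of 25 factors that act on back-splicing 16 were higher and 6 lower, against 36.8% and 37.0% of all genes, with a median log2 difference of 0.47. Protein-coding genes of the highest class of level had a median of 0.32. DHX9, the helicase that unwinds inverted repeats beside circle-forming exons, was 0.90 higher, ADAR, which edits them, 0.53 higher, and HNRNPM and U2AF2 1.76 and 1.65 higher. NOVA2 and NOVA1, neuronal splicing factors, were 2.92 and 1.40 lower. QKI, which pairs flanking introns, was not called (log2 difference 0.10, adjusted p = 0.0697). Of 22 genes of circRNA turnover and export 13 were higher and 4 lower, with NXF1, a nuclear export receptor of RNA, at 1.13. The share of these factors in the circRNA differences was not tested.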

How the data were processed

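The authors deposited, for each experiment, a gene table and a circRNA table of raw counts per library, without normalization. STAR 2.5.2b and GRCh37 (hg19) were named per the submitters' processing notes, the library kit was Illumina TruSeq per the labels' protocols, and the circRNA caller, strand setting and ribosomal RNA removal are not given in the sources used here. Each table lists features with at least 1 read in its 6 libraries. Genes were joined by identifier (30167 in both tables, 7017 and 1743 in one only), and a circRNA missing from a table was set to 0. Samples were grouped by their labels.

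The 6 induced libraries were fitted with edgeR 4.0.16 (R 4.3.3): filterByExpr (minimum count 10, minimum total 15), TMM, quasi-likelihood F-test, two-sided, Benjamini-Hochberg adjustment over all features, called under 0.05. CircRNAs needed 10 reads in all and a read in 3 libraries, and used the genes' effective sizes. The host test took circRNA and host counts with library as a block. Standard errors are those implied by the F statistic. On simulated data with 200 changed features 67.2%, 92.5% and 97% of genes changed 1.5-, 2- and 4-fold were recovered. Replicate numbers match across experiments. Deviations of same-numbered libraries had correlations of -0.0435, 0.148 and 0.155 over 13199 genes, and those of differently numbered ones -0.303 to 0.202. These ranges overlap, so the check cannot decide whether the numbers pair libraries, and the main fit used no pairing. Alternatives covered scaling, filters, left-out RNA classes, DESeq2 1.42.0, limma 3.58.1, all 12 libraries, the replicate block and leaving out each library. Named genes were the line's marks, the 4 largest called differences per list, and the 10 largest rises and falls of protein-coding genes (5 of other types). Named circRNAs were the 5 with most reads and the 5 with smallest p per direction and test. Others were chosen after their values were seen. The comparison, its members and the lists were chosen with earlier results of these data known.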

Additional observations from a re-analysis of the deposited data

How the results depend on the processing

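Plain library totals took the genes at least 2-fold higher from 1742 to 2744, and protein-coding genes alone gave 1093 at least 2-fold higher and 1371 lower, fewer genes being tested. With the replicate number as a block 6787 genes were higher and 6851 lower, and 133 and 47 circRNAs, from 178 and 66. Lower circRNAs numbered 106 with back-splice totals and 34 by DESeq2, and those higher against their host 67 by limma voom. Leaving out 1 library in turn gave 91 to 173 higher and 16 to 64 lower circRNAs, and 14 to 114 and 2 to 44 against the host. List medians, relative to protein-coding genes, kept their sign, except that G2 and M phase turned from -0.028 to 7.8e-05 and 0.0026 without experiment 1 library 3 or experiment 2 library 2, nuclear oxidative phosphorylation from 0.038 to -0.024 without experiment 1 library 2, and interferon-stimulated genes from -0.0072 to 0.020 over 12 libraries and to 0.025 and 0.031 without experiment 1 library 2 or experiment 2 library 3. Those that moved were mitochondrial tRNA -3.30 with genes of either table, C/D snoRNA -1.34 without a filter and -1.25 over 12 libraries, H/ACA snoRNA -2.73 and -2.96, spliceosomal RNA -4.12 in both and -4.12 and -4.11 without MT-RNR1 and MT-RNR2 in refits with TMM and with totals, extracellular matrix -0.40 and -0.40, NRF2 targets 0.64 over 12 libraries, long noncoding RNA -0.36 without mitochondrial and small RNA, -0.43 without a filter and -0.38 over 12 libraries, pseudogenes -0.71, -0.71 and -0.71 in the fits that leave such RNA out, -1.03 without a filter and -0.74 over 12 libraries, and snoRNA -2.30 without a filter. Over the left-out libraries they ranged for mitochondrial tRNA from -2.44 to -2.17, C/D snoRNA -1.38 to -1.07, H/ACA snoRNA -3.21 to -2.96, Cajal body RNA -2.94 to -2.64, spliceosomal RNA -4.86 to -3.67, polymerase III RNA -5.23 to -4.53, histones -0.36 to -0.0995, nuclear noncoding RNA -0.42 to -0.36, p53 targets -0.085 to -0.018, interferon-stimulated genes -0.193 to 0.031, NRF2 targets 0.67 to 0.76, long noncoding RNA -0.37 to -0.31, pseudogenes -0.74 to -0.57 and snoRNA -2.53 to -2.38. The share of Cajal body RNA ranged from -0.00207 to 0.000683 points and that of single-exon circles from -0.0535 to 0.330 points. Over protein-coding counts the back-splice difference was -0.010. Without MT-RNR1 and MT-RNR2 in the denominator the share turned to -0.0623 points for polymerase III RNA, -0.0705 for histones, -0.544 for ribosomal proteins, -0.0185 for RN7SK and -0.173 for pseudogenes. Plain library totals turned ASXL1 to 0.094, ATF4 to 0.23, CEBPG to 0.086, CTH to 0.035, IER2 to 0.22, MALAT1 to 0.23, PSMA7 to 0.18, PSPH to 0.068, RBFOX1 to 0.037, SEPW1 to 0.048, SKIL to 0.20, SNRPB to 0.089 and VEGFA to 0.15, and totals without MT-RNR1 and MT-RNR2 turned CCDC18 to -0.0199, CCT8 to -0.0587, GOLPH3 to -0.11, HSPD1 to -0.071, ORC4 to -0.16, PHGDH to -0.18 and PSMA5 to -0.0060. Where a value moved for no reason named here, the cause was not tested. In simulated data at these depths, with 200 changed features, 5.2% of 2-fold changes were recovered in circRNAs and 0% against the host, against 92.5% in genes.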

Other observations

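Genes listed in one experiment's table only held few reads. The 7017 genes listed in experiment 1 alone had 7620, 7632 and 10054 reads in its induced libraries, led by MTRNR2L8 with 1506, 1887 and 2553 reads, a nuclear gene whose sequence resembles MT-RNR2. MTRNR2L9 and MTRNR2L10, of the same kind, had 115, 213 and 279 and 92, 108 and 149 reads. MTRNR2L1, listed in both tables, had 234, 191 and 225 reads in experiment 1 and 0, 1 and 0 in experiment 2. The 5.8S ribosomal RNA pseudogene RNA5-8SP2 had 187, 84 and 622 reads, the most uneven of these. The 1743 genes listed in experiment 2 alone had 502, 624 and 632 reads.

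Pseudogenes were lower by their median log2 difference, -0.54 over the 1259 tested, but not by their summed share of all counts. That share was 0.219 points higher in the induced libraries of experiment 2 than in those of experiment 1. Without MT-RNR1 and MT-RNR2 in the denominator its difference was -0.173 points. Single pseudogenes led the rises among genes of other types. SNRPFP1, PFN1P1, DNAJB6P1 and HMGN1P38 were 3.85, 3.46, 2.77 and 2.70 higher on the log2 scale, and LINC01106, a long noncoding RNA, 2.96 higher. PFN1P1 stood at 3.47, 2.95 and 3.95 CPM in experiment 1 and at 38.2, 40.1 and 36.2 CPM in experiment 2, and parental cells had 37.7 CPM. ETV1, of the same family as ETV4 and ETV5 and chosen after its value was seen, had 5.96, 6.18 and 4.48 CPM against 39.3, 39.3 and 36.9 CPM, with 5.44 CPM in uninduced and 5.17 CPM in parental cells. HSPA1A stood at 2988 CPM in parental cells, far above its level in all 6 induced libraries, while HSPA1B stood at 658 CPM there.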
